A study of Oryctolagus cuniculus with 134 samples.

Results

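Interleukins are secreted proteins through which immune cells, and the cells of vessel walls and heart valves, signal to each other. Each binds a receptor made of 1 or more membrane chains, several of which are shared between ligands, and most receptors then signal through Janus kinases and STAT proteins, whereas the IL-1 and IL-17 receptors signal through adaptor proteins to NF-κB. Some members of the system act as brakes: soluble antagonists occupy a receptor or hold its ligand, and decoy chains bind a ligand without passing on a signal. In atherosclerosis and in valve disease interleukins are known as signals of the macrophages and lymphocytes that enter the tissue.

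The genes described here are those whose symbol begins with IL followed by a number, 54 of the 29587 genes of the count table, and they comprise 23 ligands, 28 receptor chains and 3 antagonists or binding proteins (IL1RN, IL18BP and IL22RA2). Well-known members without such a symbol in the table, namely IL6, IL10, IL18, IL33, IL2RG, IL4R and IL17RA, were not analysed here. RNA was sequenced from 5 tissues (the aorta and all 4 heart valves: aortic, mitral, pulmonary, tricuspid) of 27 male New Zealand White rabbits that entered the 16-week protocol at 12 weeks of age, with 26 rabbits giving a library of every tissue and 1 rabbit a library of 4 tissues. Ctrl rabbits ate chow and received no vitamin D2 (7 per tissue, 6 for the mitral valve). CHT rabbits (6 per tissue) ate a diet with 0.3% cholesterol and Lard rabbits (7 per tissue) a diet with 5% lard, and both received vitamin D2 at 25000 U per day per 2.5 kg for 15 days at the start. IR/CHT rabbits (7 per tissue) had the CHT regimen plus X-ray irradiation of the heart when 8 weeks of diet had passed, in 3 fractions of 8 Gy that summed to 24 Gy. The paper describes its cardiac irradiation, under the group irradiated on chow, as aimed at the aortic valve and thoracic aorta. It gives no dose for each tissue. No library came from rabbits given vitamin D2 alone or irradiation alone. Diet and vitamin D2 therefore cannot be told apart in any comparison with Ctrl. The rabbit numbers fall into 3 separate ranges (Ctrl, CHT with Lard, and IR/CHT). The treatments therefore cannot be told apart from what those ranges stand for. The 3 treatments were compared with the same Ctrl libraries in each tissue, so their results are not independent of each other.

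The libraries held 13564979 to 50577676 counted reads (median 18235577), and 3 counts, taken as the floor below which a level is not distinguished from 0, correspond to 0.0575 to 0.234 CPM, the count scaled to library size. The counts were given in 2 sets named plate 1 and plate 2, with all of the aorta on plate 2 and all of the CHT aortic and mitral valves on plate 1. Which step of the work the plates stand for is not stated in the sources used here. A few libraries stood apart from their labels. The pulmonary valve library L271 and the tricuspid valve library L272, both Lard, carried each other's chamber markers: TBX5 was at 36.2 CPM and ISL1 at 0.0905 CPM in L271, against 0 to 2.62 and 8.44 to 15.6 in the other 26 pulmonary libraries, and TBX5 was at 0.0669 and ISL1 at 12.5 in L272, against 12.0 to 126 and 0 to 0.421 in the other tricuspid libraries. The Ctrl tricuspid library L168 held a summed heart muscle marker level of 623 CPM where the other 6 held 9260 to 44400. In all, 14 libraries were closer in profile to the mean of another tissue than to that of their own. The IR/CHT tricuspid library L197 shared high levels of several members with L168. Every aortic, aortic valve and mitral library was left out in turn from the comparisons of its group. In the other valves L168, L197, L271, L272, L275 and L276 were left out. The calls ended by leaving libraries out are named with the results.

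Of the 54 members, 34 passed edgeR's expression filter and were tested for treatment in at least 1 tissue, and 23 in all 5. The 20 that this filter kept out of every treatment comparison within a tissue were 16 ligands, the receptor chains IL20RA, IL22RA1 and IL1RAPL2, and the soluble IL-22 binding protein IL22RA2. The lymphocyte cytokines were near the detection limit throughout: IL17A, the defining cytokine of Th17 cells, reached at most 1 count in any library, IL22 at most 4, IL21 at most 5 and IL13, a type 2 cytokine, at most 9. IL12B, the subunit shared by IL-12 and IL-23, reached at most 3 counts, whereas IL23A reached 16 and IL12A 25. In all, 16 members did not exceed 9 counts in any library, and 14 of those were ligands. None of those 16 could be tested in edgeR at this depth with the filter in place. Without the filter, IL22RA2 was called lower in IR/CHT mitral valves although it reached at most 5 counts. IL20RA (at most 21 counts) and IL1RAPL2 (at most 24) were called in IR/CHT aortas without the filter and by DESeq2, and IL20RA was so called in CHT aortas and in IR/CHT aortic and mitral valves as well. The IL-18 receptor chains were kept out in the aorta by the same filter. IL18RAP had no count in any Ctrl aorta, 3 to 7 counts in CHT and 3 to 25 in IR/CHT, and IL18R1 had 0 to 4 counts in Ctrl and 0 to 38 in IR/CHT. Without the filter and by DESeq2, IL18RAP was called higher in CHT and IR/CHT aortas and IL18R1 in IR/CHT aortas and mitral valves. The 7 ligands that were tested were IL1A, IL1B, IL7, IL15, IL16, IL17B and IL34, beside 25 receptor chains and 2 antagonists. A gene that passed the expression filter through the group in which it is high had to differ, so the counts below describe the tested members and not the whole set.

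A member was called changed when edgeR's quasi-likelihood test, adjusted over all genes of the tissue, gave p under 0.05 and the fold change exceeded 1.5. Called changes were numerous in rabbits on cholesterol in the aorta and in the aortic and mitral valves, few on lard, and 1 in the pulmonary and tricuspid valves together. In bulk tissue, fewer cells of a type and less RNA per cell cannot be told apart.

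**Figure D1:**
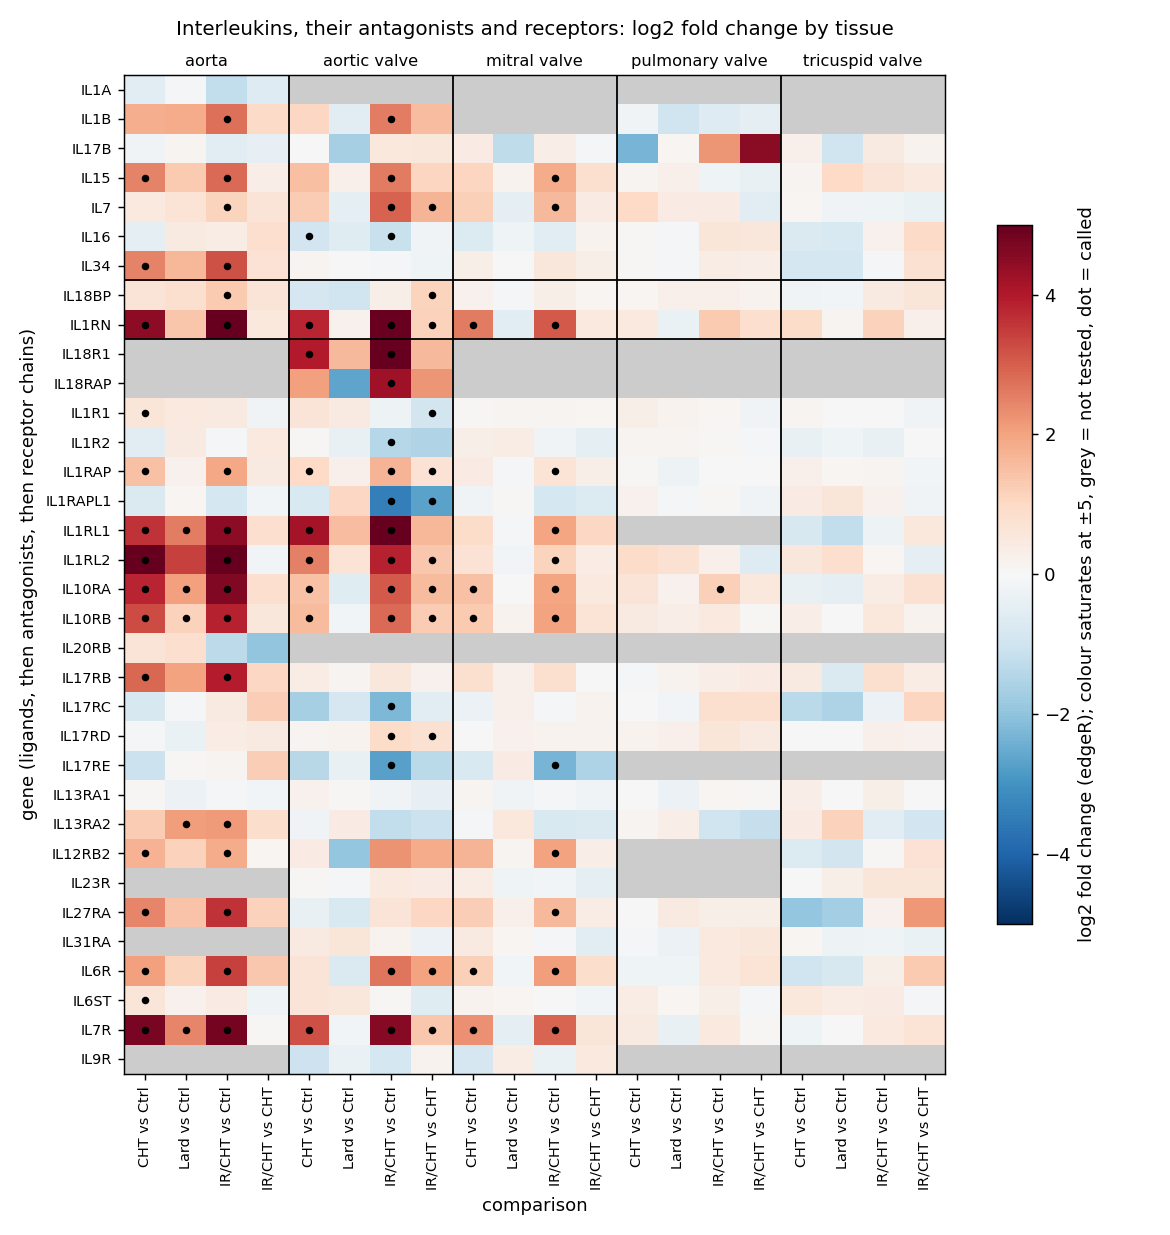
Log2 fold change of the 34 tested members (vertical axis: ligands, antagonists, then receptor chains) in 4 comparisons in each of 5 tissues (horizontal axis). Colour gives the edgeR estimate and saturates at a log2 fold change of 5 in either direction, dots mark calls (adjusted p under 0.05 and fold over 1.5), and grey marks members not tested in that tissue. In the aorta every dot is red, 15 of them for CHT and 17 for IR/CHT, whereas the aortic valve also has 5 blue dots for IR/CHT.

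In the aorta, 15 of the 29 tested members rose in CHT and none fell, and 17 rose in IR/CHT and none fell. Among all genes tested there, 19.4% were called in CHT (14.2% higher and 5.18% lower) and 34.3% in IR/CHT (22.2% higher). The median log2 fold change of the tested members was 1.28 in CHT, against -0.04 for all genes, and 1.86 in IR/CHT, against 0.0 for all genes. With the 2 genes whose Ctrl libraries all lay at the floor set to their lower bound, the CHT median was 1.18. The members that rose in CHT were 2 ligands, the antagonist IL1RN and 12 receptor chains, and those that rose in IR/CHT were 4 ligands, both antagonists and 11 receptor chains.

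The ligands that rose in the aorta were IL34, IL15, IL7 and IL1B. IL34 is the alternative ligand of the macrophage growth factor receptor CSF1R. Its lowest, median and highest aortic levels were 0.129, 0.839 and 2.09 CPM in Ctrl, 2.05, 5.84 and 7.87 in CHT, 0.56, 3.66 and 6.53 in Lard, and 3.92, 6.82 and 16.2 in IR/CHT. The IR/CHT libraries all lay above the Ctrl libraries, CHT met the top of the Ctrl range, and Lard overlapped it. The log2 fold change was 2.48 ± 0.52 (SE; adjusted p = 0.000783) in CHT and 3.19 ± 0.52 (adjusted p = 1.83e-05) in IR/CHT, and 1.67 ± 0.51 in Lard, which did not pass (adjusted p = 0.0786). IL15, a growth factor of T and NK cells, ranged from 0 to 0.576 CPM in Ctrl (median 0.0635), from 0.402 to 2.01 in CHT (median 0.543) and from 0.0954 to 1.78 in IR/CHT (median 1.47), with log2 fold changes of 2.49 and 2.83, and its groups overlapped. IL7, which sustains lymphocytes, and IL1B, the inflammasome-processed inflammatory cytokine, passed in IR/CHT, with log2 fold changes of 1.13 and 2.74 ± 0.74 (adjusted p = 0.00311 for IL1B). IL1B stayed low, at 0 to 0.283 CPM in Ctrl (median 0.0643) and 0.123 to 1.02 in IR/CHT (median 0.852).

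IL16, a ligand of CD4 released from its precursor in lymphocytes, and IL17B, an IL-17 family member, were detected in every aortic library and did not pass in any aortic comparison. IL16 had lowest, median and highest levels of 19.4, 27.5 and 41.6 CPM in Ctrl, 13.5, 20.6 and 29.3 in CHT, 19.1, 35.6 and 58.6 in Lard, and 24.2, 33.6 and 54 in IR/CHT. These groups overlapped, and the log2 fold change in CHT was -0.44 (adjusted p = 0.169). IL17B lay at 9.46, 23.3 and 43.0 CPM in Ctrl and at 5.01, 14.8 and 30.2 in IR/CHT, again overlapping.

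The antagonist IL1RN, which occupies the IL-1 receptor without signalling, was among the members with the largest called changes. In the aorta it lay at 0.063, 0.387 and 0.895 CPM (lowest, median, highest) in Ctrl, at 4.93, 7.17 and 19.4 in CHT, at 0.129, 0.673 and 2.14 in Lard, and at 6.13, 12.3 and 21.1 in IR/CHT. Every CHT and IR/CHT library stood above every Ctrl and Lard library. The log2 fold change was 4.46 ± 0.58 in CHT (22-fold, adjusted p = 1.48e-06) and 4.98 ± 0.58 in IR/CHT (31.7-fold, adjusted p = 1.38e-07). IL18BP, which holds IL-18, rose in IR/CHT with a log2 fold change of 1.31 and no overlap with Ctrl.

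Among the IL-1 family receptors of the aorta, the accessory chain IL1RAP, which completes the receptors for IL-1, IL-33 and IL-36, was at 6.16, 9.96 and 13.3 CPM in Ctrl, 20.5, 26.6 and 36.8 in CHT, 11.1, 11.6 and 13.7 in Lard, and 23.9, 35.4 and 57.3 in IR/CHT. CHT and IR/CHT were separate from Ctrl, with log2 fold changes of 1.45 ± 0.18 (adjusted p = 5.58e-07) and 1.92 ± 0.17 (adjusted p = 2.47e-09). IL1RL2, the IL-36 receptor chain, was at 0, 0 and 0.508 CPM in Ctrl, 0.684, 5.15 and 32.6 in CHT, 0.0644, 1.63 and 3.16 in Lard, and 2.51, 5.39 and 21.1 in IR/CHT. Here too CHT and IR/CHT did not overlap Ctrl, although the CHT libraries were widely spread, and the log2 fold changes were 6.21 ± 1.06 (adjusted p = 6.97e-05) and 6.07 ± 1.05 (adjusted p = 3.58e-05). All Ctrl counts of IL1RL2 came from L551 and L552, and without L552 the values were 7.13 and 6.98, while without L574, the highest CHT library, the CHT value was 5.32, and each still passed. In Lard it was 3.41 ± 1.05 and did not pass (adjusted p = 0.0824). IL1RL1, the IL-33 receptor ST2, lay at or under 3 counts in every Ctrl library, with a highest level of 0.193 CPM, against medians of 0.923 in CHT, 0.538 in Lard and 1.32 in IR/CHT. It was therefore at least 4.44-fold higher in CHT (adjusted p = 0.00021), at least 2.14-fold higher in Lard (adjusted p = 0.0408) and at least 7.86-fold higher in IR/CHT (adjusted p = 5.46e-06), with the floor set at 3 counts per library. IL1R1, the signalling IL-1 receptor, passed in CHT with a log2 fold change of 0.62 and not in IR/CHT (0.45), and its decoy IL1R2 did not pass in any aortic comparison.

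Both chains of the IL-10 receptor, through which the anti-inflammatory cytokine IL-10 acts, rose in CHT and IR/CHT, and passed less firmly in Lard. The ligand-binding chain IL10RA was at 0.643, 2.08 and 4.19 CPM in Ctrl, 11.7, 34.4 and 48.8 in CHT, 3.03, 9.35 and 19.5 in Lard, and 27.6, 52.5 and 91.6 in IR/CHT. CHT and IR/CHT lay wholly above Ctrl, and Lard overlapped its upper end. The log2 fold changes were 3.8 ± 0.46 in CHT (13.9-fold, adjusted p = 5.01e-07), 2.07 ± 0.43 in Lard (4.19-fold, adjusted p = 0.00903) and 4.64 ± 0.47 in IR/CHT (25-fold, adjusted p = 1.26e-08). The second chain IL10RB, which the IL-22 and interferon lambda receptors also use, was at 1.22, 2.83 and 4.19 CPM in Ctrl, 15.5, 24.4 and 43.5 in CHT, 2.45, 5.14 and 10.1 in Lard, and 20.1, 41.0 and 53.8 in IR/CHT. It separated the groups in the same way, with log2 fold changes of 3.28 ± 0.34 (adjusted p = 4.87e-08), 1.16 ± 0.32 (adjusted p = 0.0469) and 3.83 ± 0.34 (adjusted p = 1.86e-09). The Lard call of IL10RB was lost without the count filter (adjusted p = 0.0661), with only Lard and Ctrl fitted (adjusted p = 0.148) and on leaving out any of 10 of the 14 Lard and Ctrl libraries singly, L562 giving the highest adjusted p, 0.131. That of IL10RA was lost with only Lard and Ctrl fitted (adjusted p = 0.0676).

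IL7R, the IL-7 receptor chain of lymphocytes, was at 0.193, 0.504 and 0.895 CPM in Ctrl aortas, 7.9, 10.2 and 27.5 in CHT, 0.386, 1.35 and 10.7 in Lard, and 11.2, 13.4 and 20.7 in IR/CHT. CHT and IR/CHT were far above Ctrl, and in Lard 1 library, L578, reached 10.7 while the other 6 lay between 0.386 and 4.76. The log2 fold changes were 4.75 ± 0.62 (26.9-fold, adjusted p = 1.5e-06), 2.43 ± 0.59 (adjusted p = 0.0214) and 4.79 ± 0.61 (27.7-fold, adjusted p = 5.76e-07). The Lard value was 1.61 without L578 and did not pass (adjusted p = 0.1), nor did it without L575 (adjusted p = 0.0534), without L568 (adjusted p = 0.0543) or with only Lard and Ctrl fitted (adjusted p = 0.131). IL6R, which binds IL-6, was at 0.386, 1.83 and 2.83 CPM in Ctrl, 2.91, 6.64 and 9.93 in CHT, 0.773, 2.76 and 5.56 in Lard, and 5.21, 14.4 and 24.4 in IR/CHT. It rose by 2.07 ± 0.44 (adjusted p = 0.000802) and 3.43 ± 0.44 (adjusted p = 7.49e-07) on the log2 scale without overlap. IL6ST, the signal-transducing chain gp130 shared by the IL-6 cytokines, changed far less: it was at 176.8 to 306.1 CPM in Ctrl (median 239.2) and 276.2 to 519.8 in CHT (median 348.2), a log2 fold change of 0.62, and in IR/CHT its fold change of 1.34 was under the threshold (adjusted p = 0.0103).

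The remaining receptor chains called in the aorta were IL27RA, the IL-27 receptor, with log2 fold changes of 2.46 in CHT and 3.6 in IR/CHT, IL12RB2, the inducible IL-12 receptor chain, with 1.75 and 1.86, and IL17RB, which binds IL-17B and IL-25. IL17RB lay at the floor in every Ctrl aorta with 0 to 0.951 CPM in CHT (median 0.411), 0 to 0.502 in Lard (median 0.202) and 0.0536 to 1.52 in IR/CHT (median 0.997), and was at least 2.26-fold higher in CHT (adjusted p = 0.0155) and at least 4.65-fold higher in IR/CHT (adjusted p = 0.000415). IL13RA2, a decoy for IL-13, rose in Lard, where its range of 0.708 to 1.85 CPM (median 1.19) lay just above the Ctrl range of 0 to 0.703 (median 0.191), a log2 fold change of 2.1 ± 0.49 (adjusted p = 0.0177). It rose in IR/CHT by 2.14.

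In the aorta of Lard rabbits 5 of 29 tested members rose and none fell, namely IL10RA, IL10RB, IL7R, IL1RL1 and IL13RA2, all of them receptor chains, against 2.61% of all genes called (2.57% higher and 0.0406% lower). The median log2 fold change was 0.85 for the tested members and 0.01 for all genes. This count depended on single libraries: it was 2 without L575 or without L578 and 7 without L563 or without L576, and it was 0 when Lard and Ctrl were fitted without the other treatments. IL1RL1 was also lost without the count filter (adjusted p = 0.059) and on leaving out any of 10 of the 14 libraries singly. When CHT or IR/CHT was likewise fitted with Ctrl alone, IL12RB2, IL15, IL17RB and IL1RL1 were not called in either, nor IL1R1 in CHT or IL1B in IR/CHT. Leaving out single libraries ended no call in IR/CHT against Ctrl. In CHT it left 10 to 16 members called, 10 without L574, which ended the calls of IL1R1, IL6ST, IL12RB2, IL15 and IL27RA. IL1R1 was also lost without L559, L569 or L571, IL6ST without L571, IL27RA without L559, and IL12RB2, IL15 and IL17RB without L572. IL15 moved the other way without the Ctrl library L551, to 3.23 in CHT and 3.57 in IR/CHT. Irradiation added to the cholesterol diet gave no call in the aorta (edgeR, IR/CHT against CHT, 0.596% of all genes called), with 5 members under an unadjusted p of 0.05 and 4 called by DESeq2 (IL6R, IL16, IL17RC and IL1RAPL2). In edgeR IL6R and IL16 were called without L579 and IL17RC without L559. The IL6R difference was 1.36 ± 0.42 on the log2 scale with an adjusted p of 0.093 in edgeR.

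**Figure D2:**
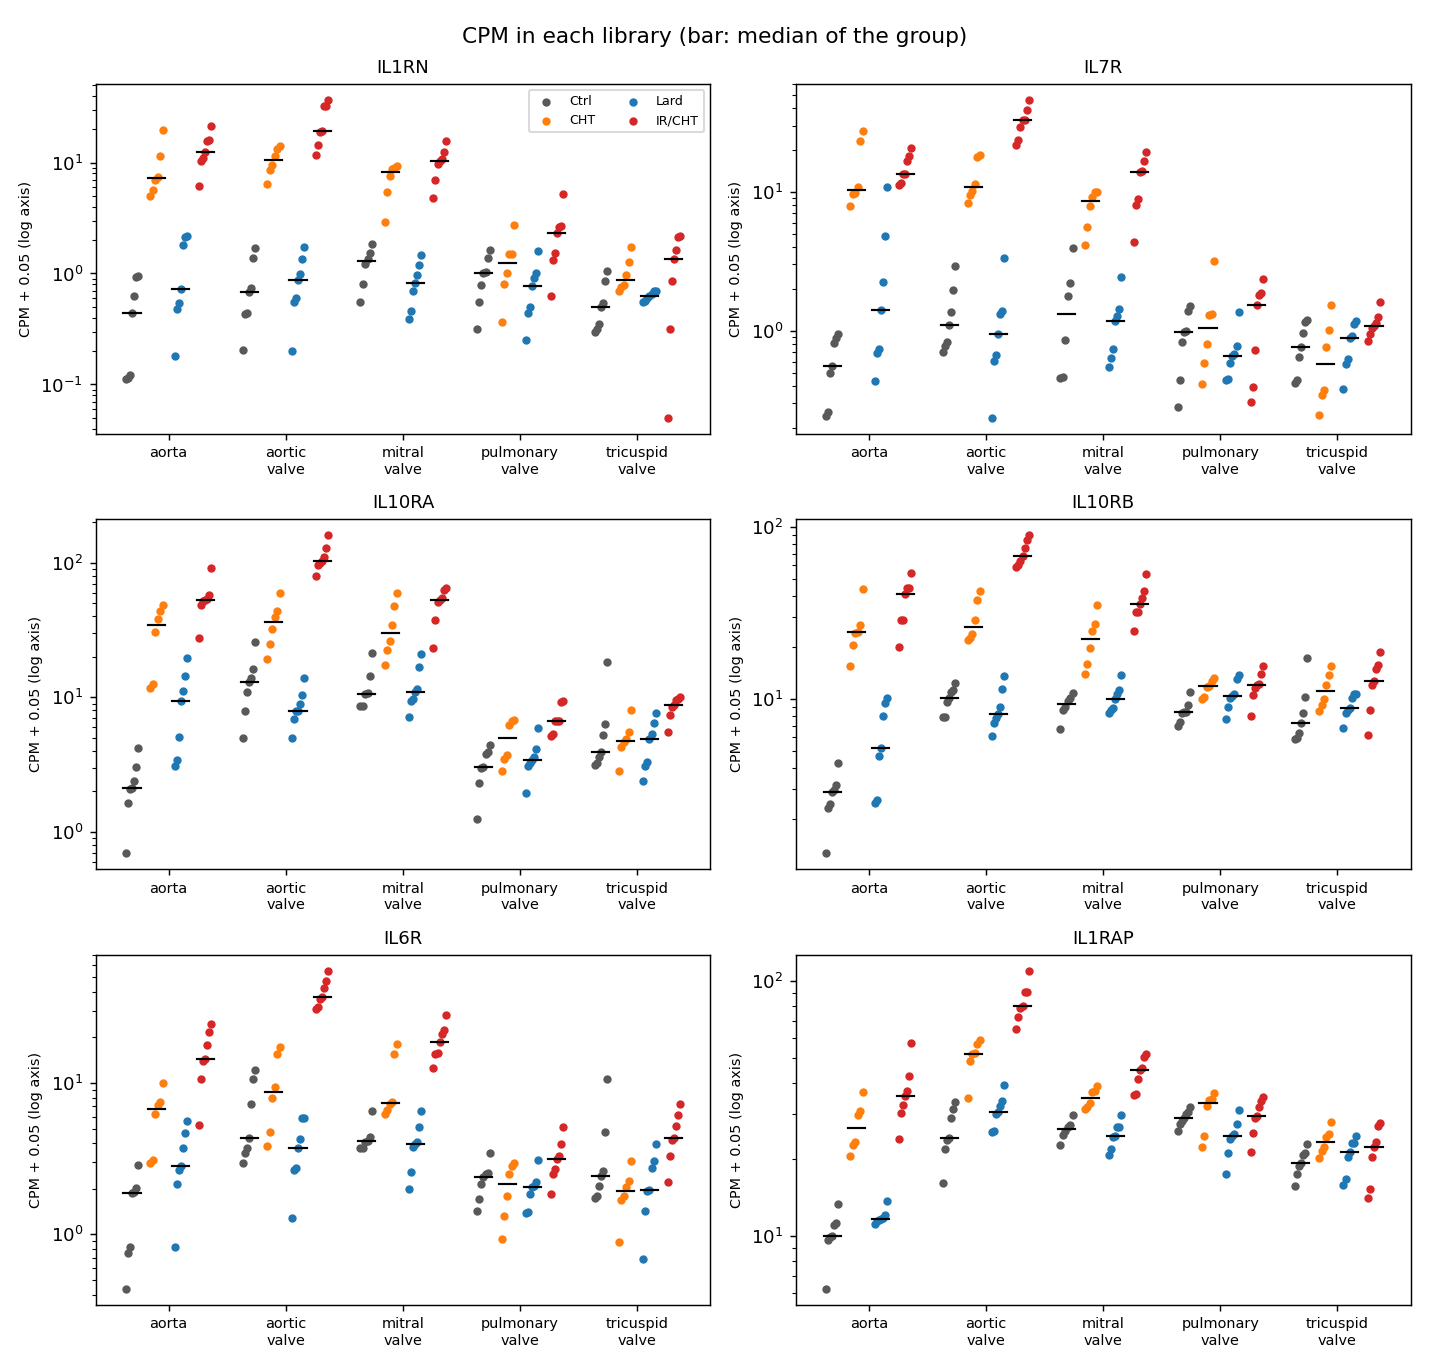
Level of IL1RN, IL7R, IL10RA, IL10RB, IL6R and IL1RAP in each library, grouped by tissue along the horizontal axis and coloured by treatment (vertical axis, CPM + 0.05, log scale; points are libraries and bars are group medians). In the aorta and in the aortic and mitral valves the CHT and IR/CHT medians stand above Ctrl, as for aortic IL1RN with medians of 7.17 and 12.3 against 0.387, whereas in the pulmonary and tricuspid valves every treated group overlaps Ctrl except pulmonary IL10RA in IR/CHT.

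Macrophage markers moved with these members. The summed level of 12 macrophage markers was 70.8 to 302 CPM in Ctrl aortas, 499 to 1280 in CHT, 196.8 to 524.2 in Lard and 768 to 2660 in IR/CHT. The 8 of 9 B and plasma cell markers found in the table summed to 2.58 to 16.6 CPM in Ctrl, 27.1 to 85.9 in CHT, 1.68 to 10.2 in Lard and 22.8 to 109 in IR/CHT. The single gene CD22 made up much of this sum, with means of 0.998 CPM in Ctrl, 43.8 in CHT and 51.1 in IR/CHT. T and NK cell markers (4 of 14 found) were low, at 0.254 to 2.35 CPM in Ctrl and 1.84 to 6.72 in IR/CHT, and neutrophil markers (9 of 11 found) were at 0.572 to 2.39 and 1.45 to 6.3, with MMP8 at or under 3 counts throughout. NKG7, of the NK cells, was at or under 3 counts in every Ctrl aorta. Mast cell markers (5 of 7 found) summed to 1.21 to 11.2 CPM in Ctrl, 3.05 to 9.77 in CHT and 3.56 to 9.4 in IR/CHT. Smooth muscle markers (5 of 8 found) moved the other way, from 83792.0 to 117752.3 CPM in Ctrl to 32518.3 to 83386.6 in CHT and 11694.0 to 62592.6 in IR/CHT, both below every Ctrl library. Endothelial markers (7 of 9 found) ranged higher, from 110 to 217 CPM in Ctrl to 192.5 to 973.1 in CHT and 245.4 to 1113.7 in IR/CHT. Their part in the interleukin results was not tested.

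In the aortic valve, 8 of the 32 tested members rose and 1 fell in CHT, against 11.9% of all genes called (8.42% higher and 3.48% lower), and 14 rose and 5 fell in IR/CHT, against 42.8% called (21.1% higher and 21.7% lower). The median log2 fold change of the tested members was 0.43 in CHT and 0.61 in IR/CHT, against -0.02 and -0.06 for all genes. In Lard none of the 32 was called in edgeR or in DESeq2, 3 were under an unadjusted p of 0.05, and 0.234% of all genes were called (0.026% higher). Irradiated and unirradiated rabbits on cholesterol also differed: comparing IR/CHT with CHT, 10 members were higher and 2 lower, against 19.7% of all genes (9.9% higher and 9.85% lower).

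Among the ligands of the aortic valve, IL16 was the member that fell in CHT, and it also fell in IR/CHT. Its lowest, median and highest levels were 40.8, 68.6 and 204 CPM in Ctrl, 28.3, 47.3 and 55.4 in CHT, 40, 52.6 and 83.6 in Lard, and 19.9, 39.3 and 69.7 in IR/CHT. The groups overlapped, and the top Ctrl value came from L150, a library that also had the highest Ctrl levels of IL17RC (94.1 CPM) and IL18BP (57.6 CPM). The log2 fold change of IL16 was -0.95 ± 0.3 in CHT (adjusted p = 0.0362) and -1.11 ± 0.29 in IR/CHT (adjusted p = 0.00242), and without L150 it was -0.61 (adjusted p = 0.146) and -0.77 (adjusted p = 0.0125). The CHT call was also lost with plate as a covariate (-0.94, adjusted p = 0.0789), without the count filter (adjusted p = 0.0516) with only CHT and Ctrl fitted (adjusted p = 0.0881) and without any of L169, L186, L261 or L265, and the IR/CHT call on plate 2 alone (-0.4, adjusted p = 0.431). IL7, IL15 and IL1B rose in IR/CHT. IL7 went from 0 to 1.54 CPM in Ctrl (median 0.545) to 2.92 to 8.68 (median 5.23) and IL15 from 0 to 0.979 (median 0.165) to 1.08 to 2.99 (median 2.03), both without overlap, with log2 fold changes of 2.94 and 2.58 ± 0.66 (adjusted p = 0.00223 for IL15). IL1B had a log2 fold change of 2.57 ± 0.69 (adjusted p = 0.00309), with 0.0563 to 0.343 CPM in Ctrl (median 0.21) and 0.225 to 3.24 in IR/CHT (median 0.912), which overlapped. The IL1B call was lost on plate 1 alone (2.58, adjusted p = 0.0745), on plate 2 alone (2.34, adjusted p = 0.0968) and with only IR/CHT and Ctrl fitted, where it was not tested, and it was not tested without L194, L257 or L547 either. The calls of IL7 and IL15 were lost on plate 2 alone (adjusted p = 0.0942 and 0.158), and the value of IL15 was 3.25 without the Ctrl library L277. IL34, called in the aorta, had log2 fold changes of 0.14 in CHT and -0.09 in IR/CHT in this valve and did not pass.

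The antagonist IL1RN lay in the aortic valve at 0.156, 0.631 and 1.64 CPM in Ctrl, 6.42, 10.4 and 14.0 in CHT, 0.149, 0.829 and 1.67 in Lard, and 11.6, 19.1 and 36.9 in IR/CHT. Cholesterol-fed rabbits, irradiated or not, stood wholly above Ctrl and Lard. The log2 fold changes were 3.79 ± 0.45 in CHT (13.9-fold, adjusted p = 6.64e-07) and 4.95 ± 0.46 in IR/CHT (30.8-fold, adjusted p = 1.96e-09), and IR/CHT exceeded CHT by 1.15 ± 0.4 (adjusted p = 0.0394) with overlapping ranges. IL18BP was higher in IR/CHT than in CHT by 1.13 on the log2 scale. All CHT libraries of this valve were on plate 1, and these IR/CHT against CHT differences did not pass with plate as a covariate (IL1RN 1.17, adjusted p = 0.0585, and IL18BP 1.14, adjusted p = 0.0589) or on plate 1 alone (0.92, adjusted p = 0.161, and 1.1, adjusted p = 0.145). Each was also lost on leaving out any of 9 of the 13 CHT and IR/CHT libraries singly, as were those of IL7 (8 of 13) and IL1RL2 (7 of 13). Against Ctrl, IL18BP in IR/CHT was called among single libraries left out only without L150 (0.87, adjusted p = 0.0254).

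Both IL-10 receptor chains were called in CHT and, with larger values, in IR/CHT in the aortic valve. IL10RA was at 4.94, 12.9 and 25.6 CPM in Ctrl, 19.1, 36.1 and 59.5 in CHT, 4.94, 7.89 and 13.9 in Lard, and 80.5, 104.1 and 161.5 in IR/CHT. IR/CHT was separate from every other group, while CHT overlapped Ctrl, and the log2 fold changes were 1.48 ± 0.29 (adjusted p = 0.000726) in CHT, 3.08 ± 0.3 (adjusted p = 4.25e-09) in IR/CHT and 1.6 ± 0.3 (adjusted p = 0.000341) between them. On plate 1 alone, which held every CHT library, the CHT change was 1.51 and did not pass (adjusted p = 0.104). IL10RB was at 7.79, 10.1 and 12.4 CPM in Ctrl, 21.9, 26.3 and 42.5 in CHT, 6.06, 8.1 and 13.6 in Lard, and 58.7, 67.7 and 89.8 in IR/CHT. For this chain Ctrl, CHT and IR/CHT did not overlap at all, and the log2 fold changes were 1.57 ± 0.19 (adjusted p = 8.13e-07), 2.83 ± 0.19 (adjusted p = 8.21e-12) and 1.25 ± 0.19 (adjusted p = 4.15e-05).

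Among the IL-1 family receptors of this valve, IL1RAP was at 16.1, 24.2 and 33.5 CPM in Ctrl, 34.7, 52.0 and 58.9 in CHT, 25.5, 30.5 and 39.1 in Lard, and 65.1, 79.7 and 110 in IR/CHT. It too separated Ctrl, CHT and IR/CHT, with log2 fold changes of 0.98 ± 0.16 (adjusted p = 7.96e-05), 1.69 ± 0.16 (adjusted p = 2.05e-09) and 0.71 ± 0.16 for IR/CHT against CHT (adjusted p = 0.00212). The IL-36 receptor chain IL1RL2 was at 0.22, 0.685 and 1.52 CPM in Ctrl, 1.52, 3.94 and 8.61 in CHT, 0.247, 1.07 and 2.32 in Lard, and 5.23, 11.4 and 21.2 in IR/CHT. The CHT range began where the Ctrl range ended and IR/CHT lay above both in its median, with log2 fold changes of 2.5 ± 0.49 (adjusted p = 0.00061) and 3.86 ± 0.5 (adjusted p = 4.28e-07). The IL-33 receptor IL1RL1 was at 0, 0 and 0.39 CPM in Ctrl, 0.0422, 0.731 and 3.24 in CHT, 0, 0 and 0.767 in Lard, and 1.3, 2.86 and 5.35 in IR/CHT. IR/CHT did not overlap Ctrl, and the log2 fold changes were 4.15 ± 1.06 (adjusted p = 0.00872) and 5.81 ± 1.07 (adjusted p = 6.34e-05). L150 held 5 of the 6 Ctrl counts of IL1RL1. Without it no Ctrl library exceeded 1 count, and both changes passed (adjusted p = 0.00104 and 9.58e-06). Without L151, the highest CHT library, the CHT value was 3.35 (adjusted p = 0.0299). It did not pass on plate 1 alone (3.15, adjusted p = 0.24), and the gene was not tested with only CHT and Ctrl fitted.

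The IL-18 receptor chain IL18R1 was at the floor in every Ctrl aortic valve, where its highest level was 0.0563 CPM, against 0 to 0.894 in CHT (median 0.288) and 0.282 to 1.73 in IR/CHT (median 1.12). It was at least 1.96-fold higher in CHT (adjusted p = 0.00663) and at least 6.06-fold higher in IR/CHT (adjusted p = 2.31e-05), and its partner IL18RAP, likewise at the floor in Ctrl, was at least 4.0-fold higher in IR/CHT. On plate 1 alone the CHT call of IL18R1 (adjusted p = 0.102) and the IR/CHT call of IL18RAP (adjusted p = 0.07) were lost, and neither gene was called with only the 2 groups fitted. IL18R1 was not tested in IR/CHT without any of 5 of the 7 IR/CHT libraries. Against CHT, both chains were called higher in IR/CHT without the CHT library L151, and without no other single library. The signalling IL-1 receptor IL1R1 took another course: it was at 30.1 to 44.9 CPM in Ctrl (median 39.6), 49.1 to 72.0 in CHT (median 61.9) and 14.5 to 51.8 in IR/CHT (median 35.5). CHT did not overlap Ctrl, yet the log2 fold change of 0.66 did not pass (adjusted p = 0.0678) unless only CHT and Ctrl were fitted (0.65, adjusted p = 0.0121), whereas IR/CHT was lower than CHT by a log2 difference of -0.92 ± 0.24 (adjusted p = 0.00686). The decoy IL1R2 fell in IR/CHT, with a log2 fold change of -1.44 ± 0.55 (adjusted p = 0.0337), and its levels of 1.12 to 15.6 CPM (median 5.98) overlapped those of Ctrl, 5.65 to 32.9 (median 22). This call was lost without the count filter (adjusted p = 0.0504) on plate 1 alone (-1.07, adjusted p = 0.363) and without any of 8 of the 14 libraries, L182 and L194 among them.

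IL1RAPL1, an IL-1 receptor relative known from synapses, was at 0.22, 2.7 and 5.05 CPM in Ctrl, 0.4, 1.31 and 2.66 in CHT, 1.65, 3.4 and 13.7 in Lard, and 0.0564, 0.162 and 0.397 in IR/CHT. The IR/CHT libraries were all below every CHT library, and the lowest Ctrl library lay among them. The log2 fold change was -3.42 ± 0.61 against Ctrl (10.7-fold lower, adjusted p = 4.51e-05) and -2.67 ± 0.62 against CHT (adjusted p = 0.00234), and the gene was not tested when only the 2 groups of a comparison were fitted. Of the IL-17 receptor family, IL17RC, a chain of the IL-17A and IL-17F receptor, and IL17RE, which binds IL-17C, fell in IR/CHT by log2 fold changes of -2.23 and -2.73, while IL17RD rose by 0.91. IL17RC lay at 8.12 to 94.1 CPM in Ctrl (median 22.4) and 3.57 to 17.2 in IR/CHT (median 5.23), and IL17RE at 0.169 to 5.76 (median 1.95) and 0.187 to 0.684 (median 0.27), so both overlapped. Neither was called on plate 2 alone (adjusted p = 0.0756 and 0.265), nor IL17RD on plate 1 alone (adjusted p = 0.0802). Heart muscle markers (9 of 13 found) also differed between these groups, at 192.2 to 12901.8 CPM in Ctrl, 20.3 to 377 in CHT and 34.5 to 282 in IR/CHT, and their part in the lower values was not tested.

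IL6R was called in IR/CHT and not in CHT in the aortic valve. It was at 2.91, 4.26 and 12.1 CPM in Ctrl, 3.76, 8.62 and 17.3 in CHT, 1.23, 3.67 and 5.86 in Lard, and 30.9, 37.1 and 55.3 in IR/CHT. CHT overlapped Ctrl and did not pass (log2 fold change 0.64, adjusted p = 0.238), whereas IR/CHT lay above every other library, by 2.67 ± 0.38 against Ctrl (adjusted p = 2.05e-06) and 2.03 ± 0.39 against CHT (adjusted p = 0.000462). Its partner IL6ST did not pass, with log2 fold changes of 0.66 in CHT and 0.07 in IR/CHT. IL7R was at 0.658, 1.05 and 2.87 CPM in Ctrl, 8.32, 10.7 and 18.5 in CHT, 0.186, 0.893 and 3.28 in Lard, and 21.8, 32.7 and 46.1 in IR/CHT. Ctrl, CHT and IR/CHT did not overlap, with log2 fold changes of 3.23 ± 0.43 (adjusted p = 4.24e-06) and 4.57 ± 0.45 (adjusted p = 4.48e-09) and a difference of 1.34 ± 0.41 (adjusted p = 0.0174). Since all 6 CHT libraries of this valve were on plate 1, IR/CHT and CHT were also compared on plate 1 alone, where 8 members were called, and with plate as a covariate, where 9 were. The IL7R difference was 1.5 in both, and passed with the covariate (adjusted p = 0.0114) but not on plate 1 alone (adjusted p = 0.059). That of IL1RL2 passed in neither (adjusted p = 0.0508 and 0.0952). Macrophage markers summed to 202 to 634 CPM in Ctrl, 863 to 1330 in CHT, 135 to 750 in Lard and 2430 to 3120 in IR/CHT, and B and plasma cell markers to 4.01 to 19.2, 17.8 to 88.6, 4.13 to 13.4 and 95.6 to 158.5. Of the B and plasma cell markers, CD22 had means of 1.1 CPM in Ctrl, 33.5 in CHT and 79.4 in IR/CHT, and JCHAIN 1.3, 4.28 and 38.4. T and NK cell markers summed to 0.881 to 4.05 CPM in Ctrl and 2.31 to 17.0 in IR/CHT, mast cell markers to 0.196 to 3.16 and 3.73 to 6.44, and adipocyte markers (5 of 7 found) to 7.9 to 81.9 and 126.7 to 1108.2. Their part in these results was not tested.

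In the mitral valve 5 of the 29 tested members rose in CHT and none fell, against 5.62% of all genes called (4.98% higher), and 12 rose and 1 fell in IR/CHT, against 17.7% called (11.1% higher and 6.65% lower). The median log2 fold change of the tested members was 0.4 in CHT and 0.32 in IR/CHT, against -0.02 and -0.01 for all genes. In Lard no member was called by edgeR or DESeq2 and none was under an unadjusted p of 0.05, with 0.0% of all genes called. Between IR/CHT and CHT none was called in edgeR (0.189% of all genes, 0.0522% higher), 4 were under an unadjusted p of 0.05, and DESeq2 called 1, IL10RB, as did edgeR without L157 or L175, and IL6R was called without L266.

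Of the mitral ligands, IL7 and IL15 rose in IR/CHT. IL7 was at 0.211, 1.05 and 1.46 CPM in Ctrl and 1.11, 3.66 and 4.75 in IR/CHT, which overlapped, with a log2 fold change of 1.61 ± 0.42 (adjusted p = 0.00531). In CHT it was 1.21 (adjusted p = 0.0977) and passed in DESeq2 (1.23, adjusted p = 0.0471). IL15 was at 0.176, 0.32 and 0.545 CPM in Ctrl and 0.739, 1.4 and 1.61 in IR/CHT, which did not overlap, with a log2 fold change of 1.86 ± 0.51 (adjusted p = 0.00835). The direction of IL16 was downward without passing, at -0.7 in CHT (adjusted p = 0.0716, and 0.0459 with only CHT and Ctrl fitted) and -0.53 in IR/CHT (adjusted p = 0.0777), and IL34 did not pass.

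The antagonist IL1RN was at 0.506, 1.23 and 1.8 CPM in Ctrl mitral valves, 2.85, 8.1 and 9.17 in CHT, 0.342, 0.772 and 1.43 in Lard, and 4.75, 10.3 and 15.6 in IR/CHT. Again every CHT and IR/CHT library lay above every Ctrl and Lard library, with log2 fold changes of 2.58 ± 0.36 (6.0-fold, adjusted p = 2.23e-05) and 3.07 ± 0.36 (8.4-fold, adjusted p = 5.96e-07).

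Of the mitral receptors, IL10RB was at 6.62, 9.34 and 10.8 CPM in Ctrl, 14.0, 22.3 and 35 in CHT, 8.31, 9.99 and 13.7 in Lard, and 24.9, 35.7 and 53.6 in IR/CHT. CHT and IR/CHT did not overlap Ctrl, with log2 fold changes of 1.31 ± 0.2 (adjusted p = 7.61e-05) and 2.0 ± 0.2 (adjusted p = 6.97e-08). IL10RA was at 8.54, 10.6 and 21.2 CPM in Ctrl, 17.5, 30.2 and 59.8 in CHT, 7.09, 10.9 and 21.0 in Lard, and 23.1, 53.3 and 64.7 in IR/CHT. Only IR/CHT was separate from Ctrl, and the log2 fold changes were 1.48 ± 0.31 (adjusted p = 0.00269) and 1.98 ± 0.31 (adjusted p = 3.03e-05). IL7R was at 0.404, 1.27 and 3.87 CPM in Ctrl, 4.1, 8.49 and 9.95 in CHT, 0.494, 1.13 and 2.38 in Lard, and 4.28, 13.9 and 19.3 in IR/CHT, and rose by 2.29 ± 0.47 (adjusted p = 0.00218) and 2.91 ± 0.47 (adjusted p = 5.17e-05) on the log2 scale. Its lowest CHT library lay just above its highest Ctrl library. IL6R was at 3.65, 4.06 and 6.5 CPM in Ctrl, 6.22, 7.31 and 18.0 in CHT, 1.93, 3.88 and 6.47 in Lard, and 12.6, 18.5 and 27.9 in IR/CHT, with log2 fold changes of 1.2 ± 0.29 (adjusted p = 0.0101) and 2.09 ± 0.29 (adjusted p = 7.08e-06). The highest Ctrl value was that of L278, and the other 5 lay at 3.65 to 4.33.

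IL1RAP changed in a narrow range in the mitral valve, at 22.8, 26.2 and 29.9 CPM in Ctrl, 31.4, 34.9 and 38.9 in CHT, 20.7, 24.7 and 29.8 in Lard, and 35.8, 44.7 and 51.6 in IR/CHT. Neither CHT nor IR/CHT overlapped Ctrl, but the CHT change was 1.32-fold and so under the fold threshold (log2 0.4 ± 0.1, adjusted p = 0.0158), while IR/CHT passed at 1.63-fold (0.7 ± 0.1, adjusted p = 9.1e-06). IL1RL1 was at 0.0505, 0.343 and 1.11 CPM in Ctrl and 0.761, 1.61 and 2.71 in IR/CHT, a log2 fold change of 1.96 ± 0.59 (adjusted p = 0.0146) with overlap. IL12RB2, IL27RA and IL1RL2 passed narrowly in IR/CHT, at 2.02, 1.61 and 1.12 (adjusted p = 0.041, 0.0478 and 0.0374). With plate as a covariate IL12RB2 and IL27RA did not pass (adjusted p = 0.0626 and 0.0676), and none of the 3 was called on either plate alone. They were also lost on leaving out any of 11, 8 and 8 of the 13 Ctrl and IR/CHT libraries singly. IL17RE fell from 0.436, 0.986 and 2.14 CPM in Ctrl to 0, 0.285 and 0.536 in IR/CHT, a log2 fold change of -2.34 ± 0.74 (adjusted p = 0.0204). On plate 2 alone the IR/CHT calls of IL17RE, IL1RL1, IL7, IL15 and IL10RA were lost as well (adjusted p = 0.0868, 0.723, 0.517, 0.344 and 0.0591), and IL17RE was not called with only IR/CHT and Ctrl fitted, without L156 or without L199. IL1R1, IL1R2 and IL6ST did not pass. Macrophage markers summed to 228.9 to 679.6 CPM in Ctrl mitral valves, 667 to 1260 in CHT, 197.9 to 749.0 in Lard and 924 to 1800 in IR/CHT, and B and plasma cell markers to 2.56 to 9.14, 10.2 to 53.3, 3.01 to 5.92 and 25.5 to 102. Their part was not tested.

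In the pulmonary valve 1 of the 25 tested members was called in any comparison by edgeR. IL10RA was at 1.2, 2.97 and 4.38 CPM in Ctrl, 2.78, 4.94 and 6.7 in CHT, 1.9, 3.4 and 5.83 in Lard, and 5.09, 6.64 and 9.4 in IR/CHT. IR/CHT lay above Ctrl without overlap, and the log2 fold change was 1.19 ± 0.26 (2.28-fold, adjusted p = 0.0239), beside 0.706% of all genes called (0.125% lower). The call was absent on either plate alone, where plate 1 called IL13RA2 instead and plate 2 called none. Leaving out the Lard library L271 gave 2 members, IL10RA and IL17RD. DESeq2 called 3 in IR/CHT, adding IL17RD (0.61, adjusted p = 0.0348) and, in the other direction, IL13RA2 (-1.01, adjusted p = 0.0207). CHT and Lard gave no call in edgeR or DESeq2 (0.159%, of which 0.0484% higher, and 0.0% of all genes, with 4 and 2 members under an unadjusted p of 0.05), and IR/CHT against CHT gave none in edgeR (0.0761% of all genes, 4 members under an unadjusted p of 0.05) and 1 in DESeq2, IL13RA2. IL1RN had a log2 fold change of 1.32 in IR/CHT with an adjusted p of 0.175. Macrophage marker sums in this valve overlapped between groups, at 549.4 to 701.9 CPM in Ctrl, 509.8 to 777.6 in CHT, 541.1 to 807.2 in Lard and 277.6 to 894.2 in IR/CHT.

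In the tricuspid valve none of the 27 tested members was called in any comparison by edgeR or DESeq2. The members under an unadjusted p of 0.05 numbered 3 in CHT, 4 in Lard, 2 in IR/CHT and 3 in IR/CHT against CHT, beside 0.163% (0.0816% higher), 0.0%, 0.231% and 0.0% of all genes called. The library L168 weighed on this: without it, 4 members were called higher in IR/CHT, namely IL10RA (log2 fold change 1.04, adjusted p = 0.0293), IL10RB (0.84, adjusted p = 0.0315), IL18BP (1.0, adjusted p = 0.0305) and IL27RA (2.05, adjusted p = 0.0429), among 985 called genes in place of 34. All 4 calls were absent when the IR/CHT library L197, at 8.27 CPM of IL27RA against 0.343 to 2.53 in the other IR/CHT libraries and 23.5 of IL18BP, was left out as well (0.98, 0.69, 0.6 and 1.11, adjusted p = 0.0634, 0.0844, 0.0628 and 0.209). Without L197 alone no member was called, and IL27RA was at -0.74. IL1RN, with a log2 fold change of 1.17 and an adjusted p of 0.537, moved to 1.35 and 0.0853 and still did not pass. On plate 1 alone 2 members were called, IL10RA and IL1RN. Macrophage marker sums were 552.8 to 766.2 CPM in Ctrl and 475 to 966 in IR/CHT.

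On chow, with all libraries and no rabbit block, members were called more often than all genes only between aortic valve and aorta (62.1%). Between the aortic valve and the aorta of Ctrl rabbits 16 of 29 tested members were higher and 2 lower in the valve, against 49.6% of all genes called (29.2% higher and 20.5% lower). The median log2 difference was 1.53 for the tested members and 0.09 for all genes, and 1.35 with members at the floor in the aorta set to their bound. All aortas were on plate 2 and the valves on both, and on plate 2 alone IL1RL2 (adjusted p = 0.0717), IL17RD (adjusted p = 0.0501) and IL23R were not called. IL17B was the ligand that marked the aorta: its lowest, median and highest levels were 9.46, 23.3 and 43.0 CPM there and 0.0563, 0.368 and 1.18 in the aortic valve, without overlap, a log2 difference of -5.56 ± 0.73 (47.0-fold lower in the valve, adjusted p = 1.55e-07). Its Ctrl medians were 0.68 CPM in the mitral, 0.112 in the pulmonary and 1.29 in the tricuspid valve. Over all treatments the aortic libraries held 5.01 CPM or more, and valve libraries held 3.44 CPM or less except for the pulmonary IR/CHT library L176, at 8.83.

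IL34 showed the opposite order. It was at 0.129, 0.839 and 2.09 CPM in Ctrl aortas and 4.85, 9.02 and 19.3 in aortic valves, without overlap, and the log2 difference was 3.53 ± 0.56 (11.5-fold, adjusted p = 3.95e-06). In the mitral valve it lay at 5.12 to 15.3 CPM, which overlapped the aortic valve, and in the pulmonary valve at 1.2 to 4.76. The receptor chains with the smallest p were IL1RAP (1.35 ± 0.14, adjusted p = 1.37e-09), IL10RB (1.87 ± 0.23, adjusted p = 4.07e-08) and IL10RA (2.53 ± 0.41, adjusted p = 6.3e-06), all higher in the valve.

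Against the pulmonary valve, 9 tested members were higher and 4 lower in the aortic valve. This was 44.8% of the tested members, a share no higher than the 48.2% of all genes called (29.9% higher and 18.4% lower). IL16 led, at 40.8 to 204 CPM in the aortic valve and 7.52 to 18.8 in the pulmonary valve (medians 68.6 and 14.2), without overlap, a log2 difference of 2.84 ± 0.35 (7.17-fold, adjusted p = 1.2e-05). IL10RA (2.11 ± 0.4, adjusted p = 0.000104), IL17RC (3.41 ± 0.66, adjusted p = 0.000115), IL27RA (3.57 ± 0.79, adjusted p = 0.000428) and IL9R, the receptor of the mast cell growth factor IL-9 (2.84 ± 0.69, adjusted p = 0.00095), were also higher. IL13RA1, IL13RA2, IL1RAPL1 and IL6ST were lower in the aortic valve. On plate 2 alone none of these members was called. Between the mitral and tricuspid valves IL16 alone was called (1.23 ± 0.34 higher in the mitral valve, adjusted p = 0.0244), beside 5.33% of all genes, and without L168, whose tricuspid IL16 level was the highest of its group at 92.5 CPM, 6 members were called. With the rabbit as a block 4 were called, IL16, IL10RA, IL1RL2 and IL34. The aortic and mitral valves gave no call (edgeR, 2.75% of all genes called, 5 members under an unadjusted p of 0.05), 2 in DESeq2 (IL17RC and IL18BP) and 3 without L168.

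**Figure D3:**
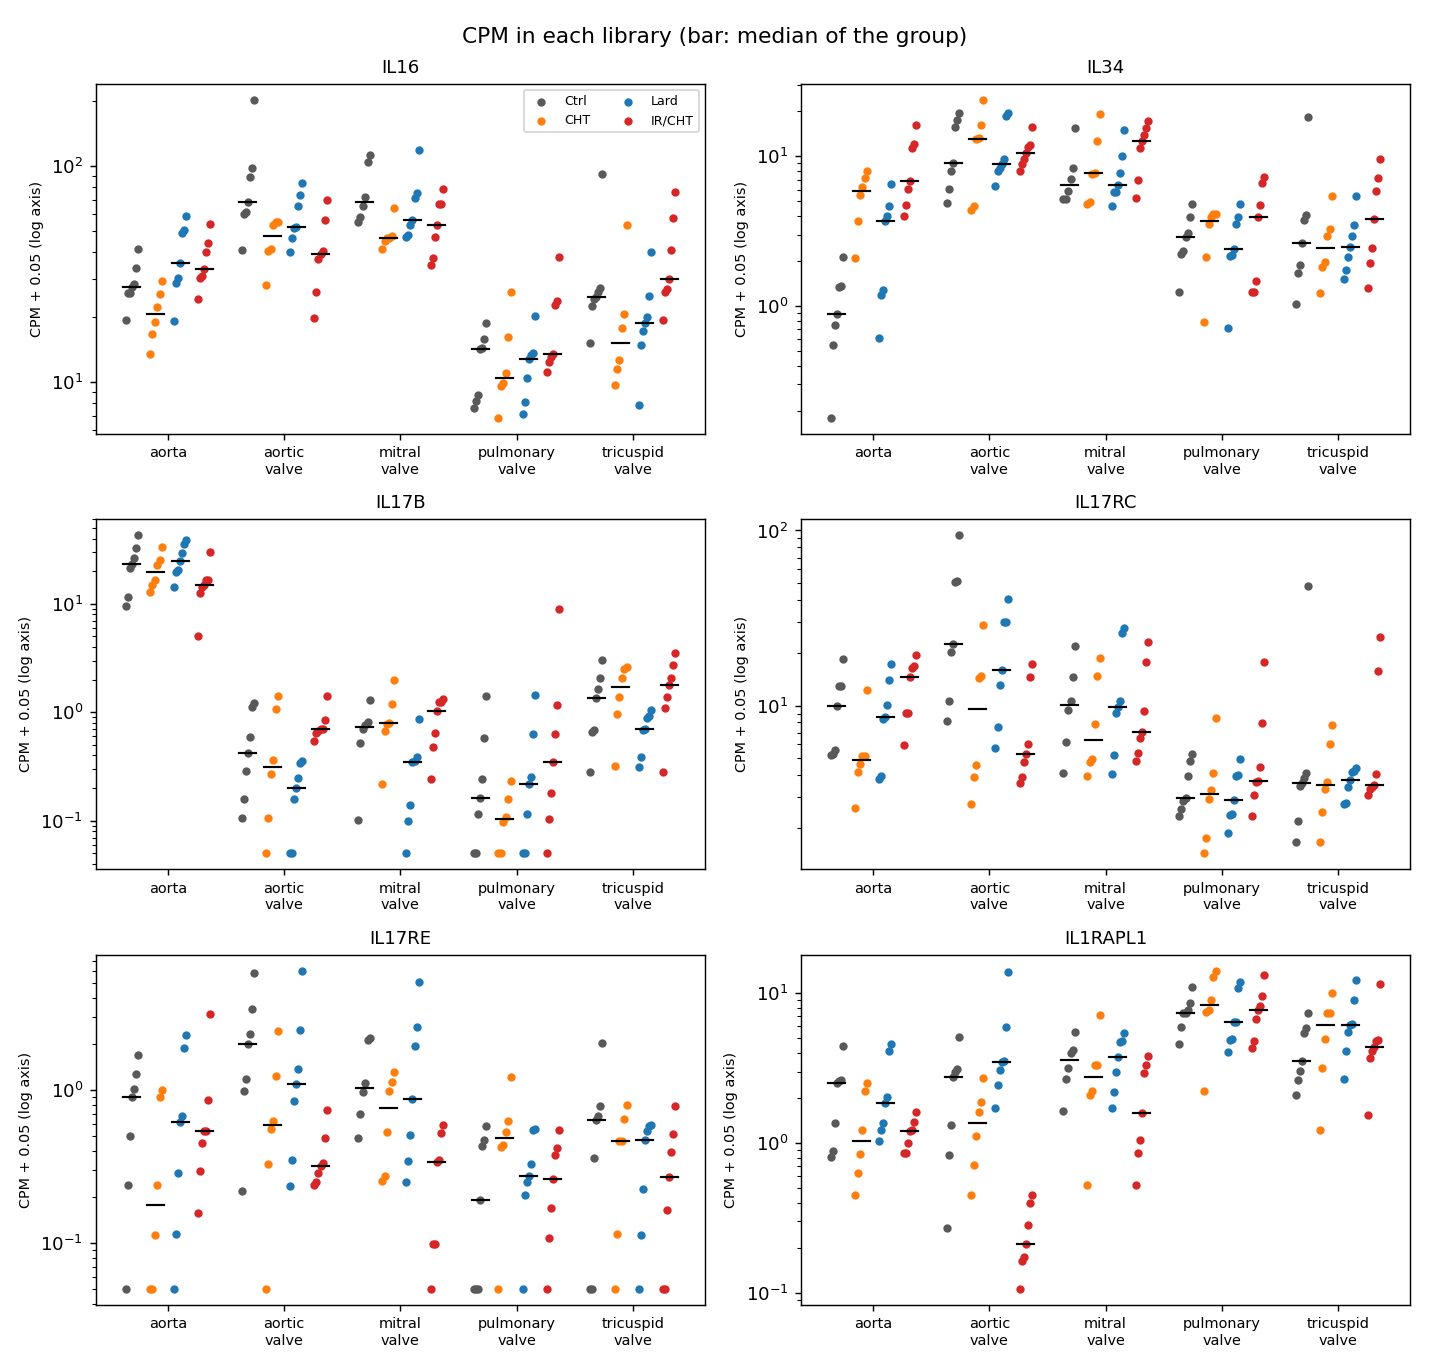
Level of IL16, IL34, IL17B, IL17RC, IL17RE and IL1RAPL1 in each library, by tissue (horizontal axis) and treatment (colour); the vertical axis is CPM + 0.05 on a log scale and bars are group medians. IL17B is high in the aorta (Ctrl median 23.3 CPM) and low in the valves, IL34 is low in Ctrl aortas (median 0.839 CPM), and IL1RAPL1 is low in IR/CHT aortic valves (median 0.162 CPM).

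Whether a treatment acted alike in 2 tissues was tested directly as the difference of the log2 fold changes, for 3 tissue pairs and the responses to CHT and to IR/CHT, which share their Ctrl libraries, and 35 members entered, the 34 above and IL1RAPL2. The tissues compared came from the same rabbits, which the fit did not use. With the rabbit as a block, the CHT difference of IL10RA between mitral and tricuspid valve was lost (1.4, adjusted p = 0.0699), IL6R was added for aortic valve against aorta in CHT, and in IR/CHT IL1R2 and IL1RL2 were added for aortic valve against aorta, IL17RE, IL1R2 and IL1RL1 for aortic against pulmonary valve, and IL1RN for mitral against tricuspid valve. In CHT, the response of 6 members was lower in the aortic valve than in the aorta, against 9.44% of all genes called (5.46% lower). The differences (aortic valve minus aorta) were -1.69 ± 0.33 for IL10RB (adjusted p = 0.000186), -2.3 ± 0.49 for IL10RA (adjusted p = 0.000743), -3.7 ± 0.97 for IL1RL2 (adjusted p = 0.00777), -2.32 ± 0.68 for IL34 (adjusted p = 0.0175) and -1.47 ± 0.44 for IL18BP (adjusted p = 0.0196), and IL27RA was the sixth. Without L150 there were 4, IL18BP and IL27RA being lost, and IL27RA was lost with plate as a covariate too (adjusted p = 0.0866). The IL1RL2 difference rests on a Ctrl aorta level near the floor, with counts in L551 and L552 only. All 6 were also called higher in the valve than in the aorta of Ctrl rabbits, with log2 differences of 2.57 for IL1RL2, 1.85 for IL18BP and 3.83 for IL27RA beside those given above. Both results use the same Ctrl libraries and are not independent, since a high Ctrl level in the valve by itself lowers the difference of responses.

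In IR/CHT 3 members were more positive and 11 more negative in the aortic valve than in the aorta, against 33.0% of all genes (15.4% and 17.6%). The smallest p belonged to IL13RA2 (-3.32 ± 0.67, adjusted p = 3.17e-05), IL34 (-3.22 ± 0.66, adjusted p = 4e-05), IL17RB (-3.3 ± 0.91, adjusted p = 0.00261), IL1RAPL1 (-2.47 ± 0.69, adjusted p = 0.00278) and IL17RC (-2.61 ± 0.75, adjusted p = 0.00377). For IL17RB, IL1A and IL1RAPL2 the difference rests on libraries at or near the floor. IL7 was more positive in the valve, by 1.88. IL17RE was more negative there, by -2.82, and was not called without L150.

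Between the aortic and the pulmonary valve the CHT response differed for 4 members, all more positive in the aortic valve, against 4.8% of all genes (4.08% higher): IL1RN (3.3 ± 0.68, adjusted p = 0.000281), IL1RAP (0.89 ± 0.2, adjusted p = 0.00124), IL7R (2.75 ± 0.68, adjusted p = 0.00428) and IL10RB (1.11 ± 0.32, adjusted p = 0.0224). The IR/CHT response was more positive in the aortic valve for 10 members and more negative for 3, against 37.1% of all genes (17.1% higher and 20% lower). The share of tested members called was the same, 37.1%. IL1RAP (1.68 ± 0.19, adjusted p = 2.35e-12), IL10RB (2.34 ± 0.31, adjusted p = 5.72e-10), IL7R (4.09 ± 0.66, adjusted p = 1.88e-07) and IL1RN (3.63 ± 0.65, adjusted p = 1.92e-06) led upward and IL1RAPL1 (-3.45 ± 0.68, adjusted p = 1.31e-05) downward.

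Between the mitral and tricuspid valves the CHT response was more positive in the mitral valve for IL6R (2.15 ± 0.54, adjusted p = 0.00988), IL10RA (1.81 ± 0.49, adjusted p = 0.0243) and IL7R (2.47 ± 0.71, adjusted p = 0.0369), against 2.18% of all genes (2.16% higher), and none of these was called without L168. The IR/CHT response was more positive in the mitral valve for 6 members, against 7.5% of all genes (5.44% higher): IL10RB (1.48 ± 0.32, adjusted p = 0.000514), IL7R (2.43 ± 0.68, adjusted p = 0.0108), IL6R (1.79 ± 0.51, adjusted p = 0.0136), IL10RA (1.57 ± 0.47, adjusted p = 0.0208), IL7 (1.86 ± 0.6, adjusted p = 0.0345) and IL1RAP. Without L168, 3 of these 6 were called, IL10RB, IL7R and IL7, and IL16 was called in addition. Without L197 as well, those 3 were called and IL16 was not. Without L197 alone, IL1RAP was not called.

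**Figure D4:**
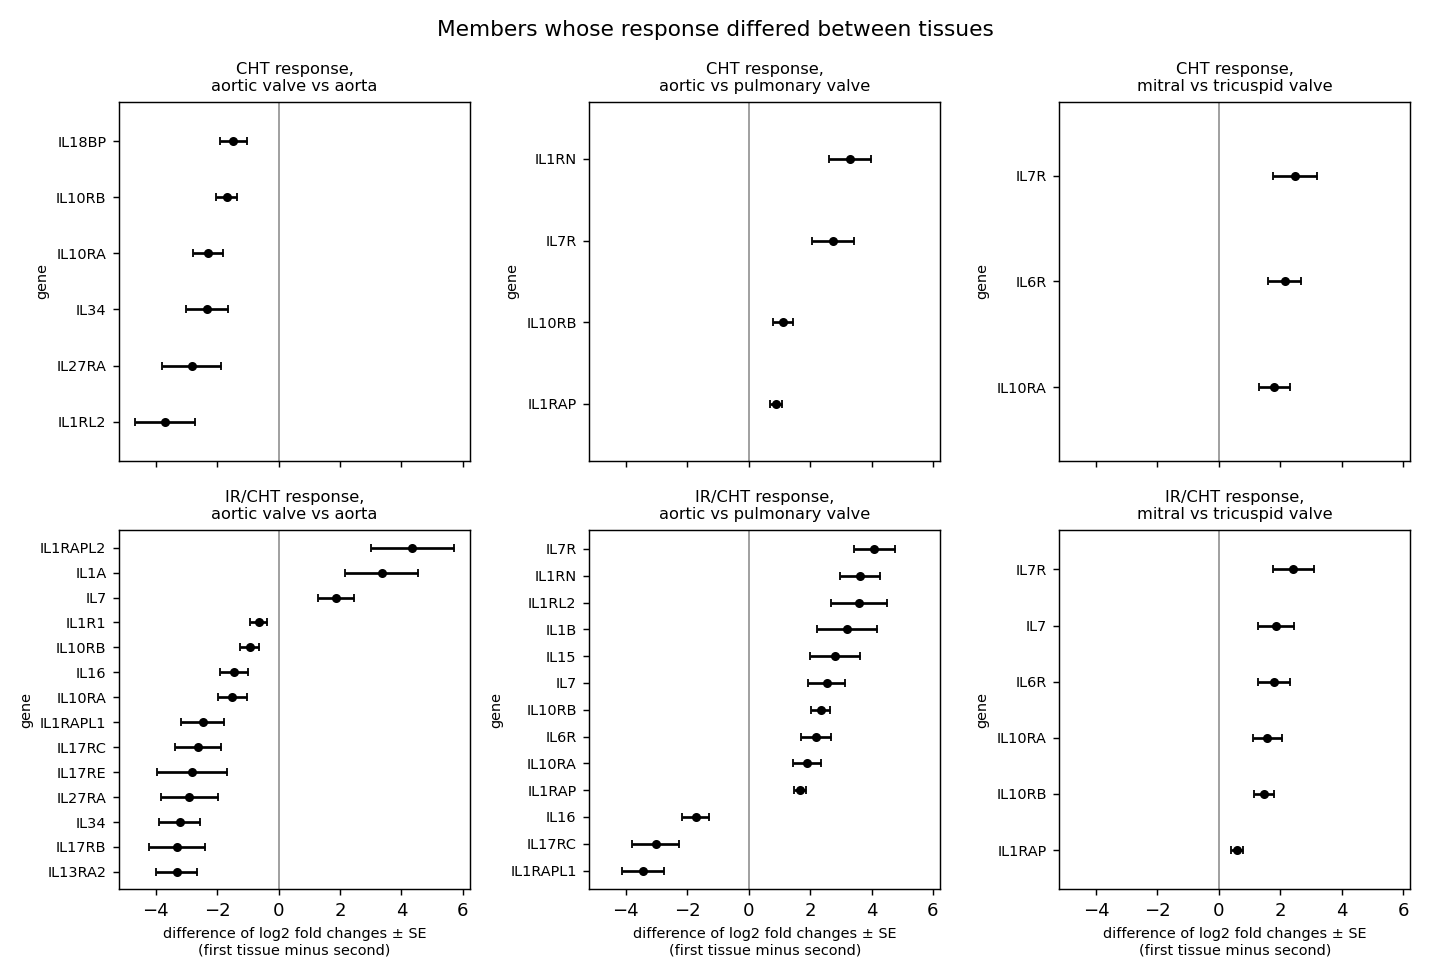
Difference of the log2 fold changes between tissues (horizontal axis, first tissue minus second, points with ± SE) for each member called in 6 tests (panels), with the genes on the vertical axis and 0 marked by a line. For IR/CHT the aortic valve exceeds the pulmonary valve in 10 members, IL7R by 4.09, and lies below the aorta in 11 members, IL13RA2 by -3.32. Of all genes, 37.1% (17.1% higher) and 33.0% (17.6% lower) were called in these tests.

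The genes around the interleukins were followed through 4 lists. Of 9 found among 16 receptor chains and cytokines of the same families that carry other names, 8 were tested in the aorta, where 3 rose in CHT and 5 in IR/CHT and none fell, with medians of 1.66 and 2.3 on the log2 scale against -0.04 and 0.0 for all genes. Of all genes in the aorta, 19.4% were called in CHT (14.2% higher), 2.61% in Lard and 34.3% in IR/CHT (22.2% higher), and the counts of each list are read against these shares. CSF2RB, the chain shared by the IL-3, IL-5 and GM-CSF receptors, rose in the aorta by 3.37 ± 0.63 (adjusted p = 0.000211) in CHT and 4.88 ± 0.65 (adjusted p = 1.23e-06) in IR/CHT, and in the aortic valve by 1.65 ± 0.54 (adjusted p = 0.0414) and 3.82 ± 0.57 (adjusted p = 3.75e-06). The neutrophil chemokine CXCL8 rose in CHT aortas (2.4 ± 0.68, adjusted p = 0.00877) and in IR/CHT aortic valves (3.33 ± 0.63, adjusted p = 8.64e-05), LIF, an IL-6 family cytokine, rose in IR/CHT aortas (4.34 ± 0.8, adjusted p = 6.89e-05), and CNTFR, a receptor of the same family, fell in CHT aortic valves (-1.82 ± 0.61, adjusted p = 0.0466). In the aortic valve 1 member of this list rose and 1 fell in CHT, where 11.9% of all genes were called, and 4 rose and 3 fell in IR/CHT, where 42.8% were called (21.1% higher and 21.7% lower). Macrophage marker sums moved with the same groups, as given above.

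Of 14 JAK-STAT genes found among 18 listed, 5 rose in the aorta in CHT, 1 in Lard and 6 in IR/CHT, with none lower and medians of 0.35 in CHT and 0.56 in IR/CHT, beside 14.2% and 22.2% of all genes higher. PTPN6, a phosphatase of blood cells that dampens cytokine receptors, rose in the aorta by 4.58 ± 0.45 (adjusted p = 2.32e-08) and 5.14 ± 0.46 (adjusted p = 1.9e-09) and in the aortic valve by 2.74 ± 0.24 (adjusted p = 7.36e-09) and 4.12 ± 0.25 (adjusted p = 1.48e-12). STAT5A, used by IL-7 and IL-2 family receptors, rose by 1.45 ± 0.23 in IR/CHT aortas (adjusted p = 1.24e-05). In the aortic valve 5 rose and 2 fell in IR/CHT, beside 42.8% of all genes called.

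Of 16 genes of IL-1 and IL-17 signalling found among 18, 5 rose and 1 fell in CHT aortas and 5 rose in IR/CHT aortas, with medians of 0.06 and 0.38, so the IR/CHT share was near that of all genes (34.3% called). The gene that fell was NFKBIA, the NF-κB inhibitor (-0.86 ± 0.14, adjusted p = 3.82e-05). The kinase IKBKB, which releases NF-κB, rose by 0.65 ± 0.11 in CHT (adjusted p = 9.3e-05) and 0.78 ± 0.11 in IR/CHT (adjusted p = 2.53e-06), and TNFAIP3, an inhibitor of the pathway, by 1.05 ± 0.14 in IR/CHT (adjusted p = 1.66e-06). In the aortic valve NFKBIZ rose by 0.84 ± 0.21 in CHT (adjusted p = 0.00825) and 1.08 ± 0.21 in IR/CHT (adjusted p = 0.000104), within counts of 1 higher in CHT, and 3 higher and 2 lower in IR/CHT, a share no higher than the 42.8% of all genes called there.

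Of the 10 inflammasome genes listed, whose products process IL-1 family cytokines, 4 were found. All 3 of those tested in the aorta rose in CHT and in IR/CHT and 1 rose in Lard, with medians of 2.27 in CHT and 3.64 in IR/CHT. The adaptor PYCARD rose by 3.61 ± 0.42 (adjusted p = 2.7e-07) and 4.16 ± 0.42 (adjusted p = 1.35e-08) in the aorta and by 1.66 ± 0.23 (adjusted p = 8.77e-06) and 2.83 ± 0.24 (adjusted p = 2.49e-10) in the aortic valve, and the sensor NLRP3 by 1.87 ± 0.41 (adjusted p = 0.00117) and 3.19 ± 0.42 (adjusted p = 9e-07) in the aorta and by 1.89 ± 0.3 in IR/CHT aortic valves (adjusted p = 8.69e-06). In the mitral valve 2 of the 4 tested rose in CHT and 3 in IR/CHT, beside 4.98% and 11.1% of all genes higher there. In the tricuspid valve none of the 41 list genes tested was called by edgeR or DESeq2 in any comparison, and 4 in CHT, 7 in Lard and 4 in IR/CHT were under an unadjusted p of 0.05 in edgeR.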

How the data were processed

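Per the labels and the study's methods, RNA was prepared with the SMARTer Stranded Total RNA Pico v2 kit, demultiplexed with bcl2fastq 2.20 and processed with nf-core/rnaseq against OryCun2.0 and the Ensembl annotation. The authors deposited gene counts (reads per gene, not normalized). The strand setting of the counting is not given in the sources used here.

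Counts were fitted by tissue with edgeR 4.0.16 in R 4.3.3 (filterByExpr, TMM scaling, robust quasi-likelihood fit over all 4 treatments), and p-values were Benjamini-Hochberg adjusted over all genes tested. The 20 treatment comparisons, 4 tissue contrasts and 6 differences of responses were each adjusted on their own. A change was called at adjusted p under 0.05 and fold over 1.5. CPM values are scaled by library total and TMM factor over all tissues, and are not comparable between genes. Tissue contrasts on chow were fitted over the Ctrl libraries of all 5 tissues, and the differences of responses over all libraries, without the rabbit as a block. Alternatives were DESeq2 1.42.0, its size factors, no count filter, only the groups compared, plate as a covariate or alone, leaving out single libraries, and the rabbit as a block. Scripts were tested on simulated data with 200 changed genes.

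The members, gene lists and tests were chosen with earlier results of these data known. In each tissue the called members are named, with group values for the 10 of smallest p, and IL1B, IL1RN, IL1R1, IL1R2, IL6R, IL6ST, IL10RA, IL1RL1, IL34, IL15, IL16 and IL7R are named in any case. For tissue contrasts and differences of responses the 5 of smallest p were named, and for each list the 2 called genes of smallest p, of which 1 is not reported here.

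The rabbit number in the column names ties tissues of the same animal. Deviations of same-rabbit libraries from their group means had a median correlation of 0.201 between aorta and aortic valve, 0.175 between aortic and pulmonary valve, 0.279 between mitral and tricuspid valve and 0.439 between aortic and mitral valve, against -0.0393, -0.0315, -0.0301 and -0.0887 for other rabbits. No pair of libraries was identical.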

Additional observations from a re-analysis of the deposited data

Results flagged for a closer look

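In 124 groups of 6 or 7 libraries tested for a lone extreme value, 9 had one, where chance gives about 1 in 20 groups, or 6.2. In aortas on Lard these were IL1RAP in L575, at 13.7 CPM where the other libraries held 11.1 to 12.1, and IL7R in L578, at 10.7 CPM where the others held 0.386 to 4.76. In aortic valves they were IL7R in the Lard library L232 (3.28 CPM, others 0.186 to 1.33), IL1RAPL1 in the Lard library L543 (13.7 CPM, others 1.65 to 5.92), and IL1RL1 in the Ctrl library L150 (0.39 CPM, others 0 to 0.0526), the CHT library L151 (3.24 CPM, others 0.0422 to 1.02) and the Lard library L232 (0.767 CPM, others 0 to 0.124). In mitral valves they were IL6R in the Ctrl library L278 (6.5 CPM, others 3.65 to 4.33) and IL7 in the Lard library L540 (1.52 CPM, others 0.391 to 0.86).

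In 46 tests a member's response differed between 2 tissues, each as the difference of log2 fold changes in edgeR, first tissue minus second. For each tissue pair and treatment 35 members were tested. Of all genes, 9.44%, 4.8% and 2.18% were called for CHT and 33.0%, 37.1% and 7.5% for IR/CHT, in the order given below. For IR/CHT in aortic against pulmonary valve, 37.1% of the tested members were called, the same share as of all genes. The CHT response of the aortic valve was below that of the aorta for IL10RB (-1.69), IL10RA (-2.3), IL1RL2 (-3.7), IL34 (-2.32), IL18BP (-1.47) and IL27RA (-2.82), the last 2 not called without L150. It was above that of the pulmonary valve for IL1RN (3.3), IL1RAP (0.89), IL7R (2.75) and IL10RB (1.11). The CHT response of the mitral valve was above that of the tricuspid valve for IL6R (2.15), IL10RA (1.81) and IL7R (2.47), none of which was called without L168.

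For IR/CHT, the aortic valve response was below that of the aorta for IL13RA2 (-3.32), IL34 (-3.22), IL17RB (-3.3), IL1RAPL1 (-2.47), IL17RC (-2.61), IL16 (-1.45), IL10RA (-1.51), IL27RA (-2.9), IL10RB (-0.94), IL17RE (-2.82) and IL1R1 (-0.65), and above it for IL1RAPL2 (4.36), IL7 (1.88) and IL1A (3.36). Without L150, IL17RE was not called. Against the pulmonary valve, the aortic valve response was above for IL1RAP (1.68), IL10RB (2.34), IL7R (4.09), IL1RN (3.63), IL6R (2.19), IL7 (2.54), IL10RA (1.9), IL1RL2 (3.59), IL15 (2.81) and IL1B (3.21), and below for IL1RAPL1 (-3.45), IL17RC (-3.03) and IL16 (-1.72). Against the tricuspid valve, the mitral valve response was above for IL10RB (1.48), IL7R (2.43), IL6R (1.79), IL10RA (1.57), IL7 (1.86) and IL1RAP (0.6). Without L168, IL6R, IL10RA and IL1RAP were not called, and without L197 alone IL1RAP was not.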

How the results depend on the processing

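Over all comparisons, DESeq2 lost no member call and added 34, and DESeq2 size factors added 4. Testing without the count filter lost 17 calls and added 13. Fitting only the groups compared lost 26, of which 19 were members that no longer passed the count filter and 7 were tested and did not pass. Plate as a covariate lost 7, plate 1 alone 15 and plate 2 alone 32. The rabbit as a block lost 1 call (IL10RA in the CHT response, mitral against tricuspid valve) and added 12, and raised the Ctrl count of mitral against tricuspid valve from 1 to 4. The cause of these changes was not tested.

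Counts of called members moved by more than 1.5 times as follows. With DESeq2, aorta IR/CHT against CHT gave 4, mitral IR/CHT against CHT 1, pulmonary IR/CHT 3, pulmonary IR/CHT against CHT 1, Ctrl mitral against tricuspid valve 2 and Ctrl aortic against mitral valve 2. Aortic Lard gave 3 without the count filter, 0 with only its groups fitted, and 2 to 7 on leaving out each of its libraries. On plate 2 alone mitral IR/CHT gave 5, pulmonary IR/CHT 0, Ctrl aortic against pulmonary valve 0 and Ctrl mitral against tricuspid valve 0, and on plate 1 alone tricuspid IR/CHT gave 2. Leaving out libraries was added after seeing the data (each one of the aorta, aortic and mitral valves, and L168, L197, L271, L272, L275 and L276 elsewhere). It gave 0 to 2 for aorta IR/CHT against CHT, 0 to 1 for mitral IR/CHT against CHT, 1 to 2 for pulmonary IR/CHT, 0 to 4 for tricuspid IR/CHT, 1 to 6 for Ctrl mitral against tricuspid valve, 0 to 3 for Ctrl aortic against mitral valve, and 0 for the CHT response of mitral against tricuspid valve without L168. Without L168 and L197 together the IR/CHT response of that pair gave 3.

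Directions reversed on a single plate, and for tricuspid IL27RA in IR/CHT from 0.2 to -0.74 without L197 (2.05 without L168). On plate 1 aortic valve IL18BP in IR/CHT was -0.1. On plate 2 tricuspid IR/CHT gave IL1RN -1.33, IL10RB -0.02, IL10RA -0.66 and IL27RA -0.54, and Ctrl mitral against tricuspid valve gave IL34 -1.13, IL16 -0.04, IL17RC -1.85 and IL27RA -1.67. At this depth the Ctrl aortic valves held 3 counts or fewer of IL18R1 and IL18RAP, whose folds are therefore lower bounds.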
